A study of Homo sapiens with 8 samples.

Results

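The stretch of 10q22 that holds KCNMA1 and DLG5 was taken as chromosome 10 from 78.6 to 80 Mb (hg19), and every H3K27ac peak overlapping it in 4 deposited peak lists was a member. These were 156 of 186774 peaks on chromosomes 1 to 22 and X, and merging peaks that overlapped by 1 bp or more gave 52 of 60669 regions. The locus was chosen by measured values, namely the number of regions with peaks after knockdown only in these same lists, so its counts of such regions and its called length are descriptions without a test. KCNMA1 spans 78.629 to 79.398 Mb and DLG5 79.551 to 79.686 Mb, with gene bounds known here to 1 kb. Both genes are read from the minus strand, so the 5′ end of each is its end with the higher coordinate.

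The libraries came from the established cell line A549, grown from a human lung adenocarcinoma. The series title describes its stress-response factor NRF2 as activated. Control libraries 1 and 2 received a control siRNA, and the knockdown libraries received CEBPB siRNA-1 or CEBPB siRNA-2, so each CEBPB siRNA has 1 library. Medium was changed 24 h after transfection and cells were taken 24 h later. CEBPB is a basic leucine zipper transcription factor, and how far the siRNAs lowered it was not measured by these libraries. Nothing in the labels ties the controls to separate cultures, and a difference between the siRNAs would count towards the spread of the knockdown group.

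H3K27ac is an acetyl mark placed on histone H3 by p300 and CBP, and it marks active promoters and enhancers. KCNMA1 encodes the pore-forming subunit of the BK channel, a potassium channel opened by calcium and by depolarisation, best known from smooth muscle and neurons. DLG5 encodes a scaffold protein of the membrane-associated guanylate kinase family, with roles in epithelial polarity and cell junctions. Peaks within a gene are often enhancers whose target can be that gene or another, and the lists do not say which.

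Over the whole lists, the 4 libraries had 45537 to 48216 peaks covering 61.7 to 70.4 Mb. Read counts were not part of the lists, so depth is unknown, and a missing peak shows that none was called, which is not the same as no acetylation. A fold enrichment is the authors' value for the best peak of a region in its own list, meaning the most significant one. Fold enrichments and peak significance (−log10 q) are given side by side below. With depth unknown, their sizes are not directly comparable between lists, and such differences were not tested.

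Called length, the bases covered by peaks, was over 2 times higher in the locus with either CEBPB siRNA than in either control. The controls had 28.9 kb (number 1) and 29.1 kb (number 2) called, the siRNA-1 library 69.1 kb and the siRNA-2 library 61.7 kb. The groups did not overlap, and the controls lay much closer together than the knockdown libraries. The means were 29.0 ± 0.112 kb in controls and 65.4 ± 5.22 kb after knockdown (SD, n = 2 each), a ratio of 2.25. Within label number 1 the knockdown library had 40.2 kb more than its control, and within number 2 it had 32.6 kb more. The locus held 24 and 31 peaks in the controls, 53 in the siRNA-1 library and 48 in the siRNA-2 library. As a share of each list's whole called length, it was 0.0426% in control 1, 0.0468% in control 2, 0.0981% in the siRNA-1 and 0.100% in the siRNA-2 library. The share, like the length itself, was higher in both knockdown libraries.

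**Figure D1:**
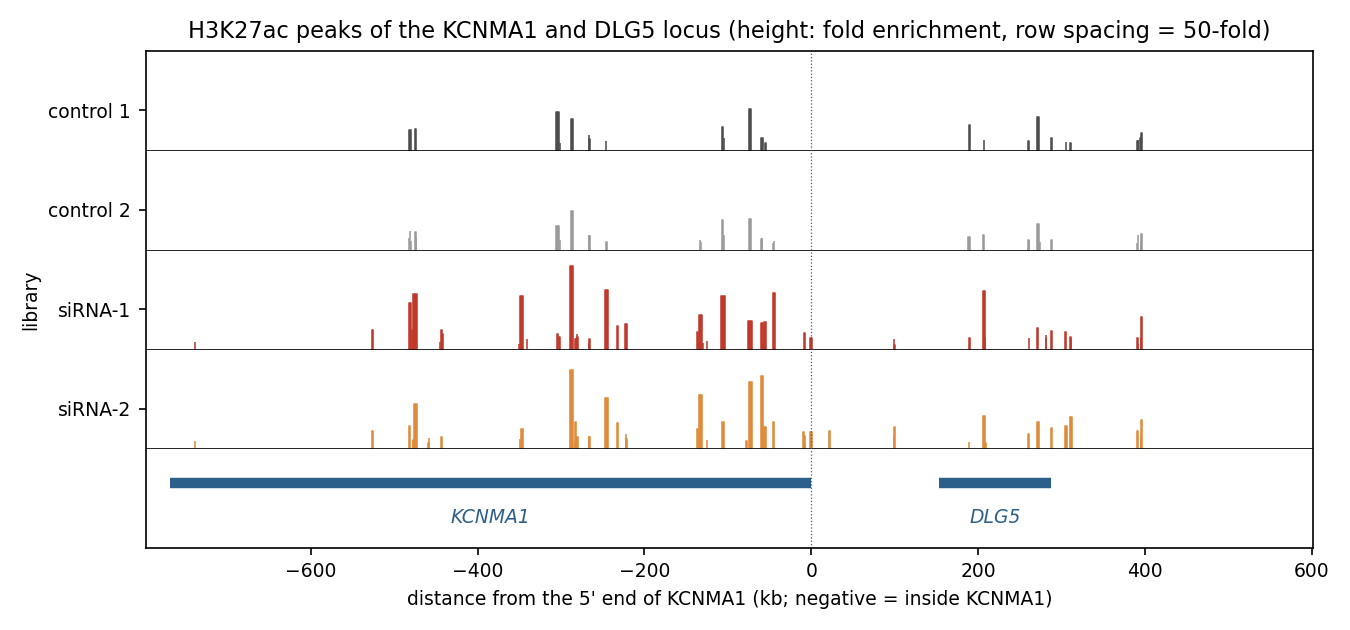
Peaks of the 4 libraries (rows) along the locus, by distance from the 5′ end of KCNMA1 in kb, with bar height giving the fold enrichment of each peak in its own list and the row spacing standing for 50-fold. Blue bars are the genes; the knockdown libraries have more peaks over KCNMA1 than the controls, and a control peak is absent at its 5′ end.

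The added length lay mostly in KCNMA1 and not in DLG5. Within KCNMA1, 18.6 kb was called in control 1, 19.2 kb in control 2, 56.3 kb in the siRNA-1 library and 46.8 kb in the siRNA-2 library. That is 18.9 ± 0.436 kb in controls and 51.5 ± 6.73 kb after knockdown (SD, n = 2 each), a ratio of 2.73. Within DLG5, 5.89 kb and 6.67 kb were called in the controls. The siRNA-1 library had 6.01 kb there and the siRNA-2 library 4.57 kb. These values overlapped between the groups, with siRNA-2 lowest and siRNA-1 between the controls. Between the genes no control peak was called, while siRNA-1 had 1.23 kb and siRNA-2 3.24 kb. Beyond the 5′ end of DLG5 the controls had 4.47 kb and 3.22 kb, and the knockdown libraries 5.54 kb and 7.095 kb. Both knockdown libraries thus lay above both controls there, by a mean of 2.47 kb. In the 29 kb between the start of the interval and KCNMA1 no library had a peak.

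**Figure D2:**
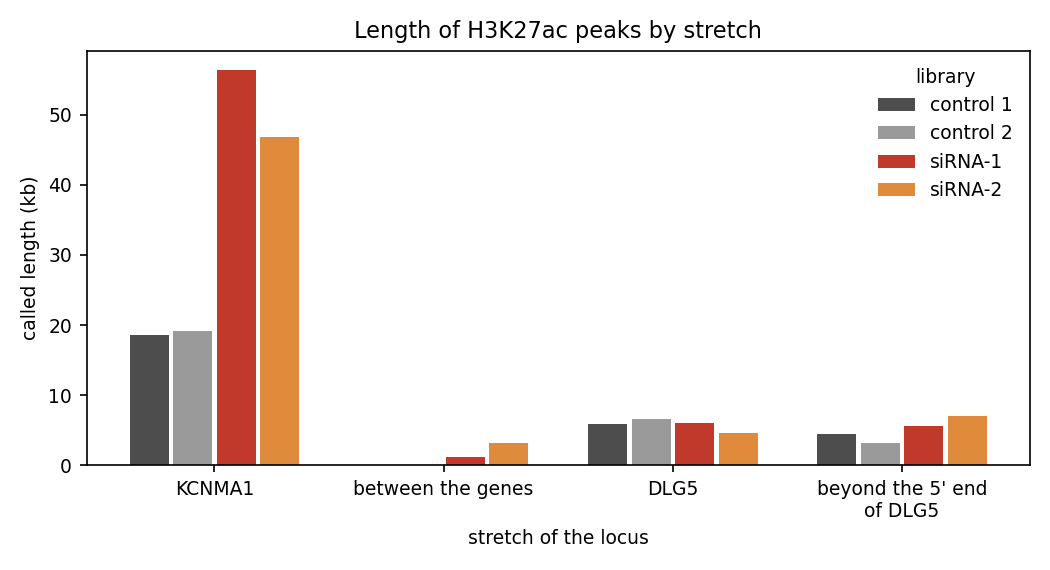
Called length in kb (bars, 1 per library) in 4 stretches of the locus. In KCNMA1 the knockdown libraries reach 46.8 and 56.3 kb against at most 19.2 kb in a control, while in DLG5 all 4 libraries lie between 4.57 and 6.67 kb.

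Of the 52 regions, 16 were gained (called with both CEBPB siRNAs and in neither control), 0 were lost (the opposite) and 17 were kept (called in all 4 libraries). The 16 gained regions were 42.1% of the 38 called with both siRNAs, where 13.6% of such regions were gained over the whole lists. None of the 18 regions called in both controls was lost, against 13.3% over the whole lists. KCNMA1 held 13 of the gained regions, the stretch between the genes 2 and DLG5 1. Of the regions called with both siRNAs, these were 13 of 25 in KCNMA1 (52%), 2 of 2 between the genes and 1 of 5 in DLG5 (20%). Beyond the 5′ end of DLG5 it was 0 of 6. The kept region that covers the 5′ end of DLG5 reaches further beyond that end than into the gene. It is therefore counted among these 6 and not in DLG5. Without siRNA-1 the gained regions numbered 26 and without siRNA-2 they numbered 28, since a call in 1 knockdown library is then enough. Of the other regions, 13 were called in 1 library only: 7 with siRNA-1, 5 with siRNA-2, 1 in control 2 and 0 in control 1. The siRNA-1 count is 13.5% of the regions of the locus and the siRNA-2 count 9.62%, near the 13.1% and 7.98% over the whole lists, while the controls had 4.70% (control 2) and 7.78% (control 1) there. The 7 of siRNA-1 had fold enrichments of 2.57 to 7.62, and the 5 of siRNA-2 had 2.72 to 8.90.

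In 100 kb windows, 11 of the 14 windows of the locus held a peak. In 8 of the 11 both knockdown libraries had more called length than both controls, a pattern found in 28.8% of windows with a peak over the whole lists. In 0 of the 11 they had less, against 26.7% over the whole lists. The 3 windows where the groups overlapped covered 79 to 79.1 Mb inside KCNMA1 and 79.5 to 79.7 Mb, which holds all of DLG5.

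A gained region covered the 5′ end of KCNMA1. It lay at chr10:79397045-79398534, with 1364 bp called with siRNA-1 and 1475 bp with siRNA-2, and with no peak in either control. Its fold enrichments were moderate, 5.48 with siRNA-1 (percentile 38.9 among that library's −log10 q values) and 8.13 with siRNA-2 (percentile 60.1). Its −log10 q was 8.40 in the siRNA-1 and 17.5 in the siRNA-2 library, so at a threshold of 10 in every list this region was no longer gained, nor was it with the lists trimmed to equal called length. The RefSeq promoter of this start, 250 bases before to 50 after it, is shown because the mark was called there after knockdown only. It is given 5′ to 3′ from the minus strand of GRCh38.p14 (chr10:77637759-77638058), a build other than that of the peaks, with GC boxes and a TATA run in capitals.
KCNMA1 promoter: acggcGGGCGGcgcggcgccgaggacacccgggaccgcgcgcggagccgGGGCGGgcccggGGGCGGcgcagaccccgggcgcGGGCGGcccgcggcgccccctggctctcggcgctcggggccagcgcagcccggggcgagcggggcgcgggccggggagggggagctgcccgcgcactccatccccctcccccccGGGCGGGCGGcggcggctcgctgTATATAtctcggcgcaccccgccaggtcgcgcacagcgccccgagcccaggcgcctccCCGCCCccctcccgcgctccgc

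These 300 bases are 85.7% G and C, percentile 99.8 of 35114 RefSeq promoters of that length, whose median is 58.7%. They hold 54 CG dinucleotides. The GC box GGGCGG was found 7 times over both strands, with 2 of the matches overlapping each other, and 45% of all promoters have at least 1. The run TATATA, which reads the same on both strands, was found at 1 place and in 3.99% of all promoters. The C/EBP core TTGCNNAA, searched on both strands because CEBPB was the target of the siRNAs, was not found in this window, and 10.5% of promoters hold it. The AP-1 motif TGANTCA, held by 7.71% of promoters, and the NRF2 core TGACNNNGC, held by 13.3%, were not found either. RefSeq lists another start of KCNMA1, whose 300 bases are 54.7% G and C with 1 CG dinucleotide and hold TGANTCA at 2 places. It lies inside the gene, at chr10:77350712-77351011 of GRCh38.p14. By the spacing of the starts on that build, it would fall near the kept region 287 kb from the 5′ end, called in all 4 libraries. It was not mapped to hg19, the build of the peaks.

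Next to the 5′ end, a gained region lay 8.38 kb inside KCNMA1, at chr10:79388600-79390637. There 1361 bp were called with siRNA-1 and 1788 bp in 3 peaks with siRNA-2, enriched 8.06-fold and 6.31-fold. Another of the siRNA-2 peaks, with a lower −log10 q, was enriched 8.03-fold. Between 44.9 and 136 kb from the 5′ end, every region called with both siRNAs had more called length with each of them than in either control. These bounds were set after the values were seen, and for gained regions the statement holds by definition. Of the kept regions of the whole lists, 26.9% had more called length in both knockdown libraries. The gained region at chr10:79260717-79262437 had 1721 bp with siRNA-1 and 1318 bp with siRNA-2, enriched 8.41-fold and 9.74-fold. A small gained region at chr10:79273167-79273565 had 240 bp and 387 bp, enriched 4.16-fold and 4.23-fold.

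In the same stretch, 3 regions were called with both siRNAs and in 1 control, and are described after their values were seen. At chr10:79262995-79267517 the called length was 0 in control 1, 736 bp in control 2, 4385 bp with siRNA-1 and 4332 bp with siRNA-2. At chr10:79352028-79354110 it was 0, 573, 2083 and 1441 bp in the same order. At chr10:79341367-79343670 it was 310 bp in control 1, 0 in control 2, 1984 bp with siRNA-1 and 2253 bp with siRNA-2. In all 3 the control that had a peak called it at a −log10 q of 3.78 to 5.99, against 31.4 to 106 in the knockdown libraries. Only these weak peaks of 1 control keep them out of the gained class. There was 1 peak at the last of the 3 regions and 2 at each of the others. With a −log10 q of at least 10 required in every list, all 3 were gained. Such regions were not particular to KCNMA1. Beyond the 5′ end of DLG5, chr10:79702413-79704268 and chr10:79708109-79710119 were called with both siRNAs and in control 1 only. Control 1 had a −log10 q of 5.09 and 4.29 there, and both regions were gained at that threshold too.

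**Figure D3:**
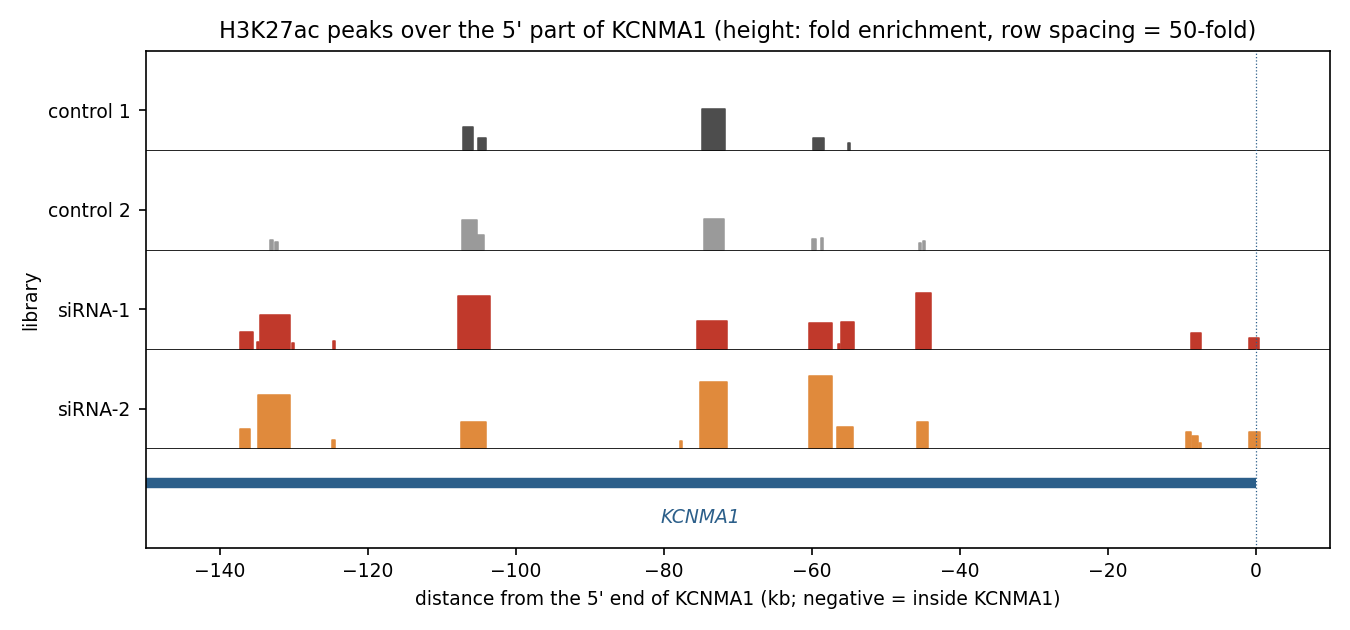
Peaks over the 5′ part of KCNMA1 by distance from its 5′ end in kb, 1 row per library, with bar height giving the fold enrichment in the library's own list and the row spacing standing for 50-fold. Only the knockdown libraries have peaks at 0 and at 8.38 kb inside the gene. Between 44.9 and 136 kb inside, the regions called with both siRNAs have more called length after knockdown than in the controls. These bounds were set after the values were seen.

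Further into KCNMA1 the longest gained region lay 347 kb from the 5′ end, at chr10:79048889-79052792. It had 3904 bp with siRNA-1, enriched 26.9-fold (at percentile 88.3 of that library's −log10 q values), and 2686 bp in 2 peaks with siRNA-2, enriched 9.88-fold (percentile 64.5). Its best summits with the 2 siRNAs were 40 bp apart. The region at chr10:79175264-79177466 had 2203 bp with siRNA-1 and 1443 bp with siRNA-2, enriched 12.6-fold and 7.22-fold. The one at chr10:79165444-79166585 had 581 bp and 1142 bp, enriched 11.5-fold and 12.9-fold.

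Beside the strongest region of the locus, described below, were 2 gained regions. The region at chr10:79114876-79115782 had 907 bp with siRNA-1 and 702 bp with siRNA-2, enriched 5.05-fold and 13.4-fold. The region at chr10:79115907-79118309 had 1704 bp in 3 peaks with siRNA-1 and 2275 bp in 1 peak with siRNA-2, enriched 7.40-fold and 5.61-fold. Here siRNA-2 had the longer stretch, unlike at 347 kb, so neither siRNA gave the longer peaks throughout.

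The remaining 4 gained regions of KCNMA1 lay 443 to 739 kb from its 5′ end, in the 3′ part of the gene. At chr10:78954400-78954977, 578 bp were called with siRNA-1 and 300 bp with siRNA-2, enriched 9.50-fold and 5.50-fold. At chr10:78919071-78920519 the values were 1449 bp and 594 bp, enriched 9.32-fold and 4.07-fold. The region at chr10:78871904-78872543 had 626 bp and 497 bp, enriched 9.68-fold and 8.52-fold. The one nearest to the 3′ end, at chr10:78658960-78659385, was weak in both libraries, with 299 bp and 244 bp enriched 3.54-fold and 3.57-fold. It was also the member nearest to the lower bound of the interval, 59.0 kb inside it. The nearest region outside that bound was gained as well, 220 kb below it, with a −log10 q of 38.5 with siRNA-1 and 18.6 with siRNA-2. At the upper bound the last member was a kept region 206 kb inside, and the next region outside was a kept one 13.8 kb above.

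Between the genes, 2 gained regions lay side by side 99.1 and 100 kb upstream of the 5′ end of KCNMA1. The region at chr10:79496791-79497388 had 320 bp with siRNA-1 and 598 bp with siRNA-2, enriched 5.21-fold and 6.20-fold. Its neighbour at chr10:79497702-79498653 had 498 bp with siRNA-1 at a −log10 q of 1.48, close to the limit of the list, and 952 bp with siRNA-2 at 22.8. No control had a peak anywhere in these 153 kb. The single gained region of DLG5, at chr10:79606647-79606998, was weak with siRNA-2: 294 bp at a −log10 q of 10.2 with siRNA-1 and 273 bp at 2.06 with siRNA-2.

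Over all 16 gained regions, the median fold enrichment was 7.73 for siRNA-1 and 6.77 for siRNA-2, against 5.49 and 5.17 over the 4103 gained regions of the whole lists. In 7 of the 16 the −log10 q was 10 or more with both siRNAs (43.8%), against 21.1% over the whole lists. These 7 were all in KCNMA1. The best summits of the 2 siRNA libraries were a median of 69.5 bp apart (range 7 to 922 bp), within 500 bp in 14 of 16 (87.5%). Over all gained regions the median was 95 bp, and 90.4% lay within 500 bp, so the locus was close to the whole lists in this.

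Kept regions also had more called length after knockdown in KCNMA1. The strongest by the lowest −log10 q over the 4 lists lay at chr10:79108949-79112410, 287 kb from the 5′ end. It had 2206 bp in control 1, 2527 bp in control 2, 3292 bp with siRNA-1 and 3358 bp with siRNA-2. Its fold enrichments were 15.9, 19.2, 41.6 and 39.2 in the same order, at percentiles 81.9, 86.6, 94.0 and 96.7 of the lists by −log10 q. Both knockdown lists called it their most enriched peak of the locus. The next, at chr10:79322539-79326521, had 3005 and 2737 bp in the controls and 3983 and 3546 bp with the siRNAs. At chr10:79290145-79294463 the controls had 2584 and 2857 bp in 2 peaks each, and the siRNA libraries 4319 and 3352 bp in 1 peak each. In these 3 regions both knockdown libraries lay above both controls.

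In 3 kept regions, all in KCNMA1, called length was at least 2 times higher in both knockdown libraries than in both controls. The widest difference was at chr10:79151154-79154292, 245 kb from the 5′ end. It had 371 bp in control 1 and 256 bp in control 2, against 2775 bp with siRNA-1 and 3041 bp with siRNA-2, a ratio of means of 9.28. The −log10 q was 5.67 and 4.49 in the controls, and 102 and 116 with the siRNAs, whose best summits were 2 bp apart. At chr10:78920670-78925633 the values were 1573, 1142, 4964 and 3681 bp, a ratio of means of 3.18. At chr10:79337568-79340761 they were 1487, 926, 3171 and 3130 bp, a ratio of 2.61. Such regions were 2.73% of the kept regions of the whole lists. In all, 8 of the 17 kept regions of the locus had more called length in both knockdown libraries, against 26.9% over the whole lists, and 4 had less, against 25.6%.

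**Figure D4:**
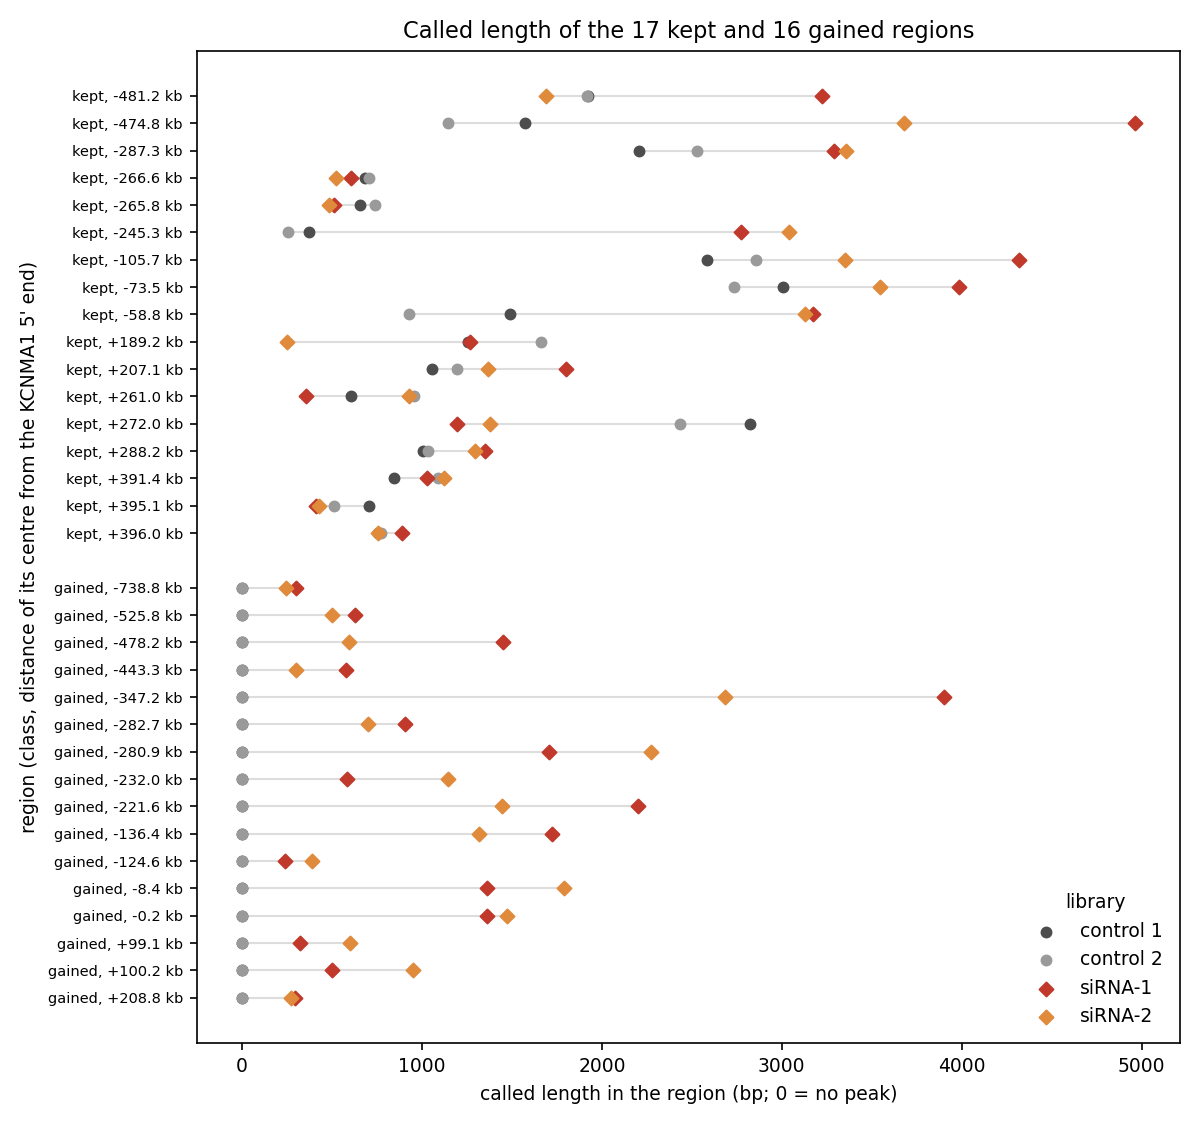
Called length in bp of each kept and each gained region, with controls as circles and knockdown libraries as diamonds, and both controls at 0 in every gained region. Regions are labelled by the distance of their centre from the 5′ end of KCNMA1; the diamonds lie to the right of the circles in 8 kept regions and to the left in 4.

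Not every region of KCNMA1 was longer after knockdown. At chr10:79092206-79096910, 303 kb from the 5′ end and the next region below the strongest kept one, called length was 3762 bp in control 1 and 4069 bp in control 2. It was 2525 bp with siRNA-1, and with siRNA-2 no peak was called. The controls called it at a −log10 q of 60.9 and 35.1, and siRNA-1 at 20.2. This was the only region of the locus called in 3 libraries with a −log10 q of at least 10 in each of them. A pair of adjacent kept regions, picked out after their values were seen, was also shorter. At chr10:79130965-79131774 the values were 685, 703, 606 and 523 bp, and at chr10:79131864-79132603 they were 656, 740, 513 and 482 bp, in the order control 1, control 2, siRNA-1, siRNA-2.

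DLG5 had regions that differed in either direction. The region at its 5′ end, chr10:79685570-79686922, was kept, with 1008 bp in control 1, 1035 bp in control 2, 1349 bp with siRNA-1 and 1297 bp with siRNA-2. Its fold enrichments were 5.91, 5.06, 9.11 and 10.2, at percentiles 49.5, 43.1, 59.7 and 68.3. The 5′ end of DLG5 was thus called with and without knockdown, while that of KCNMA1 was called after knockdown only. This does not cover the other RefSeq start of KCNMA1, given above. By the lowest −log10 q over the 4 lists, the strongest region within DLG5 was at chr10:79668609-79671433. With either siRNA, the region at chr10:79604160-79605958, described below, had a higher −log10 q. The region at chr10:79668609-79671433 was shorter after knockdown. It had 2825 and 2436 bp in the controls and 1193 and 1377 bp with the siRNAs, a ratio of means of 0.489. No kept region of the locus had at most 0.5 times the called length in both knockdown libraries, against 2.25% over the whole lists, and in this region the siRNA-2 library stayed above that limit.

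Another 2 regions of DLG5 were picked out after their values were seen. At chr10:79604160-79605958 the values were 1057 and 1193 bp in the controls, 1799 bp with siRNA-1 and 1368 bp with siRNA-2, at −log10 q of 10.3, 13.8, 102 and 51.5. At chr10:79586324-79588090 the controls had 1257 and 1662 bp, siRNA-1 1268 bp and siRNA-2 250 bp, at −log10 q of 34.5, 16.95, 9.96 and 2.54. In the first, both knockdown libraries had more called length than both controls, and in the second the groups overlapped, with siRNA-2 far below the rest. Beyond DLG5, RefSeq lists among others DLG5-AS1, POLR3A, which encodes a subunit of RNA polymerase III, and RPS24, which encodes a ribosomal protein, in that order. They were not placed on the peaks, since that table is on another build.

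In the locus, the overlap of called bases relative to their combined length was higher within a treatment than between treatments. This is a description without a test, since the locus was chosen for regions with peaks after knockdown only. The Jaccard index of called bases, shared length over combined length, was 0.6999 for the pair of controls and 0.662 for the pair of knockdown libraries. Between a control and a knockdown library it was 0.297 to 0.322. Of the 23.9 kb called in both controls, 16.9 kb was called with both siRNAs and 3.31 kb with neither. Of the 52.1 kb called with both siRNAs, 28.6 kb was called in neither control. Of the mean difference of 36.4 kb, gained regions made up 17.4 kb, kept regions 9.23 kb and the other regions 9.79 kb.

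The neighbouring stretches of the same length differed from each other. In the 1.4 Mb below the locus the controls had 21.9 and 22.5 kb called, and the siRNA libraries 24.3 and 26.9 kb. There 3 of 13 regions called with both siRNAs were gained (23.1%), and 4 of 19 called in both controls were lost (21.1%). In the 1.4 Mb above the locus, 8 of 27 were gained (29.6%) and 2 of 20 lost (10%). Over the whole lists the shares were 13.6% gained and 13.3% lost. In that stretch above, the controls had 54.6 and 48.3 kb called, and the siRNA libraries 95.4 and 65.9 kb. Higher called length in both knockdown libraries therefore also went beyond both bounds, by a mean of 3.385 kb below the locus and 29.2 kb above it. No test sets the locus apart from either stretch.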

How the data were processed

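The submitters' processing notes name hg19, MACS2 2.2.7.1, SAMtools 1.7.0 and BWA 0.7.17. Options and any use of the 4 input libraries by the peak caller were not stated in the sources used here, and the inputs were not analysed here. Reads were 101-base single-end, per the labels' protocols. Each of the 4 H3K27ac libraries has its own deposited list, with start, end, summit offset, a fold enrichment (a linear ratio at the summit), −log10 p and −log10 q per peak. The deposited score is 10 times the −log10 q without decimals and was not used further. The highest q was 0.0498.

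Locus, members, lists and rules were chosen with earlier results of these data known. Peaks were merged across lists by 1 bp or more, on chromosomes 1 to 22 and X. The region names rest on a fixed rule: all gained and lost regions, the regions at the 5′ ends of both genes, the 5 kept regions with the highest lower −log10 q, kept regions at least 2 times longer or at most 0.5 times as long in both knockdown libraries, and regions in 3 libraries that reach a −log10 q of 10 in each. Others are named as chosen after their values were seen. No test was made, since the contrast chose the locus and the smallest exact permutation p of 2 libraries against 2 is 0.333. Alternatives were reciprocal overlap of 50%, a −log10 q of 10, equal called length, stitching of neighbouring peaks within 12.5 kb, leaving out each library, the gene span and the label numbers. Merging and counting were tested on simulated lists. Python 3.11.15 and NumPy 2.4.6 were used.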

Additional observations from a re-analysis of the deposited data

Results flagged for a closer look

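In 2 kept regions the siRNA libraries lay on opposite sides of both controls, and this difference between the siRNAs was not tested, with 1 library each. At chr10:78915197-78918422 in KCNMA1 the called length was 3226 bp with siRNA-1 and 1688 bp with siRNA-2, 1538 bp apart, against 1925 and 1915 bp in the controls. At chr10:79793564-79794465, beyond the 5′ end of DLG5, it was 890 and 756 bp, 134 bp apart, against 757 and 774 bp in the controls. There siRNA-2 was 1 bp under control 1.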

How the results depend on the processing

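Over 47 values recomputed under alternatives, 35 stayed within 1.5 times the reported count, or within the spread between libraries for length. These 35 include the mean of the differences within label numbers, which could not differ from the reported value. They also include the gained and lost counts within the gene span, outside which no gained or lost region lay. Called length stayed higher after knockdown in every alternative run, by 32.7 to 40.1 kb without each library in turn. The replicate block, the mean of the differences within label numbers, gave 36.4 kb, equal to the reported value by construction. Stitching neighbouring peaks raised the difference to 97.6 kb, because gaps between peaks then count, and left 6 gained and 10 kept regions. When every peak had to reach a −log10 q of 10 there were 14 gained, 2 lost and 8 kept regions. Of the 16 gained regions 7 remained so, and the other 7 were regions whose control peaks fell under the threshold. The 2 lost ones lay in the kept regions at chr10:79130965-79131774 and chr10:79586324-79588090. With equal called length 11 of the 16 were still gained, without the region at the 5′ end of KCNMA1. With a −log10 q of 10 asked only of libraries that called a region there were 7 gained and 8 kept regions. Reciprocal overlap gave 2 lost regions, in the regions at chr10:79092206-79096910 and chr10:79290145-79294463. Lost here means that no knockdown peak reached the required overlap. The first was still overlapped by siRNA-1 peaks. The piece in the second, chr10:79292833-79293996, was overlapped by 1 longer peak with each siRNA. Without each library in turn, gained regions ranged from 18 to 28, lost ones from 0 to 2 and kept ones from 17 to 20. Windows with more called length after knockdown ranged from 6 to 9. Depth is unknown, which limits what a missing peak shows.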
